A study of Mus musculus with 136 samples.

Results

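H3K9me3 regions of wild-type (WT) mouse embryonic stem cells were mapped in an original experiment and again in a rescue experiment of the same series, and the lists from the 2 experiments are compared here. The members are all autosomal regions of both deposited H3K9me3 lists of clone 410, 136852 regions in all, of which 38861 came from the original and 97991 from the rescue experiment. They are part of the 592342 regions in the 8 WT lists read here. The lists rest on 5 of the 136 samples of the series, 2 replicates in the original and 3 in the rescue experiment.

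Both groups were WT cells of clone 410, a single clone of the male line E14JU (129/Ola), grown on gelatin with serum and leukaemia inhibitory factor and left untreated. No MCM2 mutation was present in either group. In both experiments, mononucleosomes were released by micrococcal nuclease from unfixed nuclei, Drosophila chromatin was added as a spike-in and H3K9me3 was immunoprecipitated, with inputs sequenced beside it. The WT samples were the reference for MCM2-2A cells, whose MCM2 helicase subunit cannot bind histones, and in the rescue experiment also for cells with the mutation reverted. The study's sample table lists the original libraries as single-read and the rescue libraries as paired-end with more filtered reads, and the number of replicates differed too. Experiment, read layout, depth and number of replicates cannot be told apart in any comparison below. The authors combined the replicates in each list, so every comparison sets 1 list against 1 list, with no replicate check and no p-value. Intervals in square brackets are 95% Wilson intervals, which cover counting error only.

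The cell type was checked on the original experiment's H3K4me3 and H3K27ac lists. Of 10 embryonic stem cell markers 9 had both H3K4me3 and H3K27ac within 2500 bp of a gene end, including Pou5f1, Sox2 and Nanog, and Esrrb did not. Both marks were also found at 1 of 6 fibroblast markers (Thy1), 3 of 5 neuronal markers (Tubb3, Map2 and Syt1) and 0 of 3 blood markers.

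H3K9me3 marks constitutive heterochromatin. In embryonic stem cells it is laid down mainly by SETDB1 at endogenous retroviruses and other repeats, where KRAB zinc finger proteins and TRIM28 recruit the enzyme, and by SUV39H enzymes at pericentromeric repeats. It also covers clusters of zinc finger, olfactory receptor and vomeronasal receptor genes, the imprinted allele of imprinting control regions, where ZFP57 reads the methylated hexamer TGCCGC, and some germline gene promoters. H3K4me3 marks active and poised promoters, H3K27ac active promoters and enhancers, and H3K27me3 Polycomb-repressed chromatin.

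Sequences of 3 kinds under these regions are shown, because the lists treated them differently. All are the 250 bases before a RefSeq gene start (GRCm38.p6, the same build as mm10), read 5′ to 3′ on the gene's strand. Of 25 imprinted genes with a promoter sequence, 12 had a promoter in both lists, and 10 of these also carried H3K4me3. The printed examples, all with H3K4me3, are Mest (chr6:30737800-30738049, plus strand), Mcts2 (chr2:152686898-152687147, plus), Nap1l5 (chr6:58907127-58907376, minus) and Plagl1 (chr10:13090582-13090831, plus). Capitals mark TGCCGC or its reverse complement GCGGCA, which 2 sites in the Mest sequence and 1 in each of the others match. These examples were chosen for holding the hexamer, so a match in each was fixed by the choice. Of the 12 genes, 6 held it in a window in both lists.
Mest: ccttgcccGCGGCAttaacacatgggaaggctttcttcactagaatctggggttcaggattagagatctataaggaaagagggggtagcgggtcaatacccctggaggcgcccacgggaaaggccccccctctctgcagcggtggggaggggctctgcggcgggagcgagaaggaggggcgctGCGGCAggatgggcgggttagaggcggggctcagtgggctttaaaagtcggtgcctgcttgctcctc
Mcts2: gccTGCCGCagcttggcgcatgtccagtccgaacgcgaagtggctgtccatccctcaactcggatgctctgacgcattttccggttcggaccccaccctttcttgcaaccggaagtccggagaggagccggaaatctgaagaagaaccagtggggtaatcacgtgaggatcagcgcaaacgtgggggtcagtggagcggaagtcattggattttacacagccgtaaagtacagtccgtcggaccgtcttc
Nap1l5: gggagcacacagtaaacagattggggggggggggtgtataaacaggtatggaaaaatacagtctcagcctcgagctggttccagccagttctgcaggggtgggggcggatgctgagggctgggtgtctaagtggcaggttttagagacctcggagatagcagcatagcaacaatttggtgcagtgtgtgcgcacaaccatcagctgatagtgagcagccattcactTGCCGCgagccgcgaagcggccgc
Plagl1: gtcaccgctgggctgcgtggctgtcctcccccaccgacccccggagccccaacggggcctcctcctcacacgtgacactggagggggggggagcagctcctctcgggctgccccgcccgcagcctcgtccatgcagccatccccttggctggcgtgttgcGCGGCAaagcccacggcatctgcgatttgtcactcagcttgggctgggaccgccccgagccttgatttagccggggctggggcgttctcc

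Germline gene promoters are the second kind. Mael (chr1:166238745-166238994, minus strand) lay in both lists and Dazl (chr17:50293621-50293870, minus strand) in the rescue list alone. Capitals mark CpG dinucleotides, 18 in the Mael and 20 in the Dazl sequence.
Mael: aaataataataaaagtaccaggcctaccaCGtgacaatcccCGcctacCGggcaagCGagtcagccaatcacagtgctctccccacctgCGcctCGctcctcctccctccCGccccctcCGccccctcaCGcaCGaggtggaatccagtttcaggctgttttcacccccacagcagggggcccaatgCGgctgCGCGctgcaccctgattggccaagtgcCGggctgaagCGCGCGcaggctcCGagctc
Dazl: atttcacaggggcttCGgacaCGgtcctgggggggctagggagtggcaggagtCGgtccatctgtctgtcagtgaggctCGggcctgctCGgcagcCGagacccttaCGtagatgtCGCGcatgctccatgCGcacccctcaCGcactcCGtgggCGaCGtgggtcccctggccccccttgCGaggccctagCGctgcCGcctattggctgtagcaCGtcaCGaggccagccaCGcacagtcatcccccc

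Promoters of near-identical gene copies are the third kind, shown for Serpina1 genes, which encode alpha-1-antitrypsin in the liver. Serpina1a (chr12:103863620-103863869), Serpina1b (chr12:103738190-103738439) and Serpina1e (chr12:103956898-103957147), all on the minus strand, lay in rescue regions alone. Capitals mark the longest run that all 5 of Serpina1a to Serpina1e share, 55 bases. The longest run that Serpina1a shares with 1 other copy was 72 bases, with Serpina1b.
Serpina1a: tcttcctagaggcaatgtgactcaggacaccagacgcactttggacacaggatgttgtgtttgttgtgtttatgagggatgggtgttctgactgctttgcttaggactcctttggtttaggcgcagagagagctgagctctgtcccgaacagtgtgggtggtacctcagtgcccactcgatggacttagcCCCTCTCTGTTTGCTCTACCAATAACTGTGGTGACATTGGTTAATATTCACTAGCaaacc
Serpina1b: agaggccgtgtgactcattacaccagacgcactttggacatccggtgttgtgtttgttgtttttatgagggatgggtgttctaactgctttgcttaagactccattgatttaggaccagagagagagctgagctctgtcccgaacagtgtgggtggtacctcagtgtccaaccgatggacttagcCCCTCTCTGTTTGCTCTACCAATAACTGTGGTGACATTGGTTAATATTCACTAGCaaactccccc
Serpina1e: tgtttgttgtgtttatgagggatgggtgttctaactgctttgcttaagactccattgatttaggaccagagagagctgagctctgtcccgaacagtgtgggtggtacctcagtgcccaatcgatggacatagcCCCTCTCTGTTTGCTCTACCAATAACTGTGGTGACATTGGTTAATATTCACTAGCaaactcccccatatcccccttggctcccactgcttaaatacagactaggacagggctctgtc

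The rescue list held 2.52 times as many regions as the original list and covered 2.26 times as many bases. The original regions covered 190.2 Mb, 7.91% of the 2403 Mb that the lists span on the 19 autosomes, and the rescue regions 429.3 Mb, 17.9%. Median width was 3.091 kb in the original and 2.101 kb in the rescue list, so the rescue list was longer and held more narrow regions. The ratio of bases ranged between autosomes from 2.06 on chromosome 10 to 2.498 on chromosome 7. In bins of 1 Mb, the rescue list covered more than the original list in 2385 of 2412 bins, and the original list more in 5. Coverage of the bins by one list followed coverage by the other, with Pearson's r = 0.82 and Spearman's rho = 0.86 across bins, which share the genome's gene and repeat distribution.

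Most of the original list was found again, and most of the rescue list had no counterpart. Of the original regions, 35401 of 38861 overlapped a rescue region by at least 1 bp, 91.1% [90.8 to 91.4]. Of the rescue regions, 34280 of 97991 overlapped an original one, 35.0% [34.7 to 35.3]. By bases, 85.2% of the original list lay in rescue regions, 162 Mb, and these were 37.7% of the rescue list. A further 28.2 Mb lay in the original list alone and 267 Mb in the rescue list alone. With the strongest rescue regions alone, as many as the original list holds, the region shares were 66.5% and 63.2% and the ratio of bases was 1.68.

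Other marks of the same clone, mapped in the same 2 experiments, are set beside these shares. Shares by overlap depend on width and coverage, in which the lists differ. The H3K4me3 lists hold narrow peaks, with median widths of 0.645 kb (original) and 0.680 kb (rescue). The rescue H3K27me3 list covers 37.3% of the autosomes. The order of the marks below is therefore descriptive only. Of the original H3K27me3 regions, 69.2% were found in the rescue list, and 38.1% of the rescue regions in the original list. For H3K4me3 the shares were 95.5% and 76.5%. The share of the original list found again was therefore higher for H3K9me3 than for H3K27me3 and lower than for H3K4me3, while the share of rescue regions with an original counterpart was the lowest of the 3 marks. By bases the order of the last share was another, with 37.7% of rescue bases shared for H3K9me3, 26.6% for H3K27me3 and 79.2% for H3K4me3.

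Overlapping regions of both lists were joined into 101173 loci. Of these, 34002 (33.6%) were in both lists, 3460 (3.42%) in the original list alone and 63711 (63.0%) in the rescue list alone. The loci in both lists were wide, with a median of 4.63 kb and 253 Mb in all. The original-only loci had a median of 1.95 kb and held 14.7 Mb. The rescue-only loci were the narrowest, with a median of 1.26 kb, and held 190 Mb, and 44.0% of them were under 1 kb wide.

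Among rescue regions, the share found in the original list rose with width. Wide regions meet the other list more often by size alone, and how much of the rise size gives was not tested. Of rescue regions under 1 kb, 10.7% [10.4 to 11.0] had an original counterpart. The share was 42.5% at 2 to 5 kb, 64.1% at 10 to 20 kb and 66.4% [61.6 to 70.9] at 50 kb or more. For original regions the share found in the rescue list was 83.2% [82.3 to 84.1] under 1 kb, 94.0% at 5 to 10 kb and 80.8% [70.3 to 88.2], 59 of 73, at 50 kb or more. Regions of 50 kb or more without a counterpart thus occurred in both lists, 14 of 73 in the original and 130 of 387 in the rescue list.

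**Figure D1:**
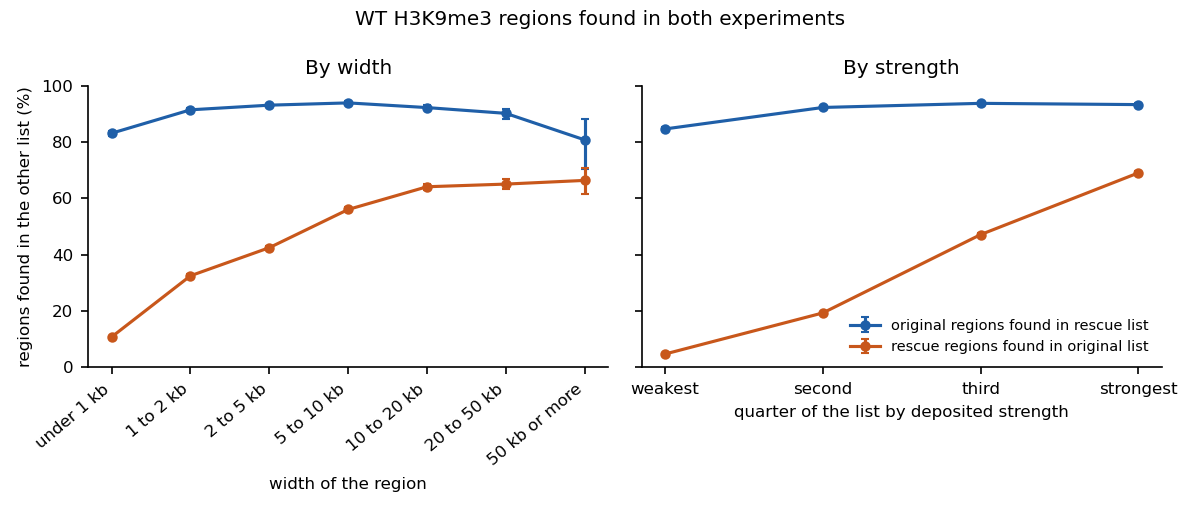
Percent of WT H3K9me3 regions that overlap a region of the other list by at least 1 bp, by width of the region (left) and in 4 nearly equal groups of each list by deposited strength (right). Points are shares of original regions found in the rescue list (blue) and of rescue regions found in the original list (orange), and bars are 95% Wilson intervals. The blue points lie between 80.8% and 94.0%, and the orange points climb from 10.7% to 66.4% with width and from 4.64% to 69.1% with strength. Wide regions meet the other list more often by size alone.

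**Figure D2:**
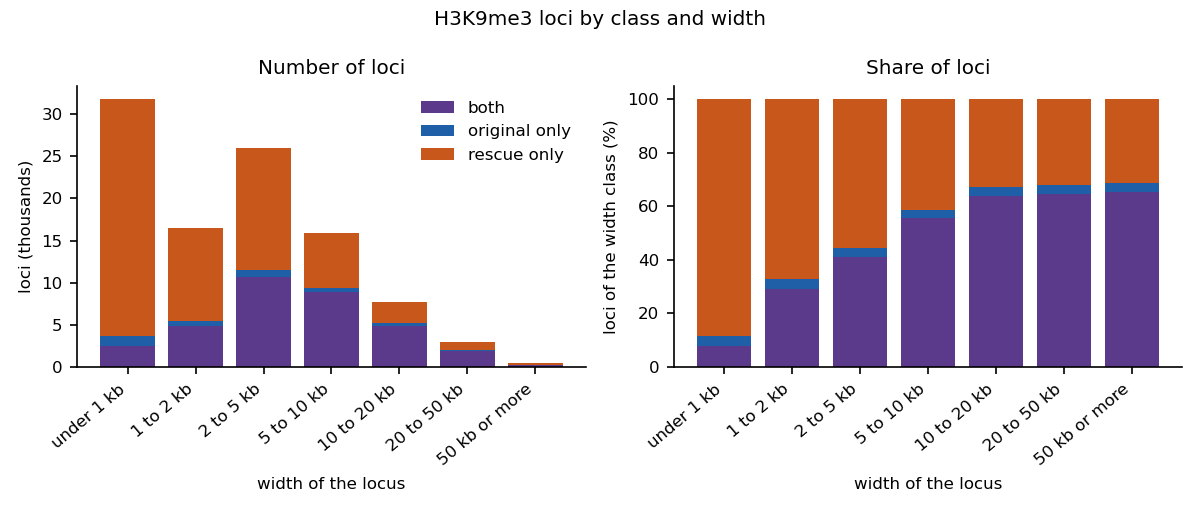
Number of joined H3K9me3 loci (left, axis in units of 1000) and share of the loci of each width class in percent (right), by class: in both lists (purple), in the original list alone (blue) or in the rescue list alone (orange). Rescue-only loci make up 88.3% of the loci under 1 kb and 31.1% of those of 50 kb or more, while original-only loci stay between 3.03% and 3.68% in every width class.

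In the rescue list the share also rose with the deposited strength of a region, used for ranks within a list only. In the weakest of 4 nearly equal groups of the rescue list 4.64% of regions had an original counterpart, and in the strongest 69.1% [68.5 to 69.6]. The original list changed less, from 84.7% in the weakest to 93.4% in the strongest group. On a scale from 0 (weakest) to 1 (strongest), the median rank in the rescue list was 0.746 for regions with a counterpart and 0.349 for those without. In the original list the medians were 0.512 and 0.327. Within a width class the order held in the rescue list, where the medians at 2 to 5 kb were 0.698 and 0.427, and at 50 kb or more they were 0.974 and 0.966.

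Where both experiments marked a locus, they usually marked it as 1 region each, and the rescue region was the wider. In 32493 of the 34002 shared loci (95.6%) 1 original region met 1 rescue region. In these, the rescue region was wider in 72.7%, with medians of 4031 and 3041 bp and a median ratio of widths of 1.18 (quartiles 0.986 and 1.69). In 1269 loci several original regions, 6 at most, fell in 1 locus, and in 274 loci several rescue regions did. The widest shared locus was 415 kb (chr1:117707580-118122100), where 1 rescue region spanned 3 original regions of 84.3 kb in all, and it held the gene B020011L13Rik.

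Rescue-only loci lay about as near to original regions as other sequence outside the original list, apart from the nearest distances. Their median distance to an original region was 20.4 kb. Of their bases, 79.4% were within 50 kb of an original region, beside 78.0% of all autosomal bases outside the original list. Within 10 kb the shares were 15.2% and 29.1%. The lists hold no 2 regions closer than 3009 bp, so sequence next to a region could not hold a separate region of the same list. Of the original-only loci, 90.01% of bases were within 50 kb of a rescue region, beside 96.5% of all bases outside the rescue list.

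All 3 classes of loci were poor in protein-coding genes. Genes made up 23.1% of the bases of loci in both lists, 17.9% in original-only and 24.1% in rescue-only loci, beside 40.9% of autosomal bases. Pseudogenes were over-represented in every class, with 1.58, 1.85 and 1.47 times their share of the autosomes. In bins of 1 Mb with no gene start the original list covered 9.36% and the rescue list 22.5% of the sequence, and in bins with at least 20 genes they covered 6.96% and 14.6%. The ratio of rescue to original coverage was 2.40 in the bins without genes and 2.097 in the densest bins.

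Of loci of 50 kb or more, 101 of 274 in both lists overlapped a protein-coding gene. The counts were 44 of 130 in the rescue list alone and 6 of 14 in the original list alone. The widest rescue-only locus was 344 kb (chr7:14629900-14973600) with Obox7, an oocyte homeobox gene. The next held the secretoglobin genes Scgb2b21, Scgb2b24 and Scgb1b24 (236 kb, chr7:33515540-33751960), then Zscan4d, a gene of the 2-cell stage (210 kb, chr7:11103930-11313570), and Zfp951, a zinc finger gene (188 kb, chr5:104700210-104887980). They lay 6.90 to 15.3 kb from the nearest original region. The widest original-only locus held the olfactory receptor genes Olfr834 and Olfr835 (129 kb, chr9:18987520-19116260), and the second the zinc finger genes Zfp982 and Zfp985 (114 kb, chr4:147445350-147559470). These lay 19.5 and 34.4 kb from the nearest rescue region.

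H3K27ac and H3K4me3 were present in some of these widest loci and absent from others. The locus of Olfr834 and Olfr835 held 9158 bp of H3K27ac and 6489 bp of H3K4me3, and that of Zfp982 and Zfp985 held 11120 and 9720 bp, with 11883 bp of H3K27me3. The locus of Zfp951 held 4011 bp of H3K27ac and 7471 bp of H3K4me3. The Zscan4d locus held 828 bp of H3K27ac and no H3K4me3. The Obox7 and secretoglobin loci held neither, and 11344 and 3031 bp of H3K27me3. The next 3 original-only loci by width held neither mark, and of these only the locus with Slc22a30 (73.2 kb) overlapped a protein-coding gene. The next rescue-only locus (163 kb on chromosome 3) overlapped none and held 747 bp of H3K27ac and no H3K4me3.

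Loci in both lists overlapped H3K27ac more often than loci of a single list. In the original experiment's H3K27ac peaks of clone 410, 19.9% [19.5 to 20.3] of loci in both lists, 12.4% [11.4 to 13.6] of original-only and 9.53% [9.30 to 9.76] of rescue-only loci had a peak. Wide loci meet more peaks by size alone. At a width of 2 to 5 kb the shares were 17.4%, 14.4% and 12.2%. By bases, H3K27ac covered 1.15 times its autosomal share in loci of both lists, 1.01 times in original-only and 0.897 times in rescue-only loci. Over all widths it was thus close to its autosomal share in every class. The ratios differed between widths, and the classes differ in width. At 2 to 5 kb they were 1.35, 1.09 and 0.965. At 50 kb or more they were 0.596, 1.06 and 0.424, the second resting on 14 loci. H3K27ac peaks inside both lists had a median fold enrichment of 4.31, and those in neither list 3.91.

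H3K4me3 was depleted to a like degree in every class. It overlapped 15.5% of loci in both lists, 10.2% of original-only and 8.81% of rescue-only loci. By bases it covered 0.429, 0.429 and 0.427 times its autosomal share. These ratios varied with width, in which the classes differ. At 2 to 5 kb they were 0.559, 0.477 and 0.552. At 50 kb or more they were 0.190, 0.734 and 0.129, the second resting on 14 loci. With the rescue experiment's own H3K4me3 list the ratios over all widths were 0.457, 0.445 and 0.455. The H3K4me3 peaks in both H3K9me3 lists had a median fold enrichment of 8.99, and those in neither list 9.56. At the 90th percentile these groups reached 37.8 and 73.1. Peaks in the original list alone had a median of 9.48 and a 90th percentile of 45.5, and those in the rescue list alone 10.4 and 68.5.

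H3K27me3 was also depleted by bases over each class as a whole, and less so in rescue-only loci. It overlapped 20.9%, 18.1% and 18.6% of the loci in both lists, the original alone and the rescue alone. At 2 to 5 kb the order between the first and last turned, with 16.1% of loci in both lists and 19.3% of rescue-only loci. By bases the mark covered 0.477, 0.503 and 0.670 times its autosomal share. These ratios varied with width, and the classes differ in width. In loci under 1 kb they were 0.878, 1.06 and 0.992, and at 50 kb or more 0.340, 0.475 and 0.342. The H3K27me3 list of the rescue experiment covers 37.3% of the autosomes in place of 14.7%. With that list the ratios over all widths were 0.752, 0.677 and 0.943. SUZ12, a core subunit of the Polycomb complex that writes H3K27me3, lay in 0.432%, 0.202% and 0.367% of loci, the second share resting on 7 loci. Its peaks cover only 0.745% of autosomal bases. By bases SUZ12 was at 0.088, 0.018 and 0.089 times its autosomal share. None of the 3 histone marks was found at 58.1% of loci in both lists, 67.5% of original-only and 69.7% of rescue-only loci.

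**Figure D3:**
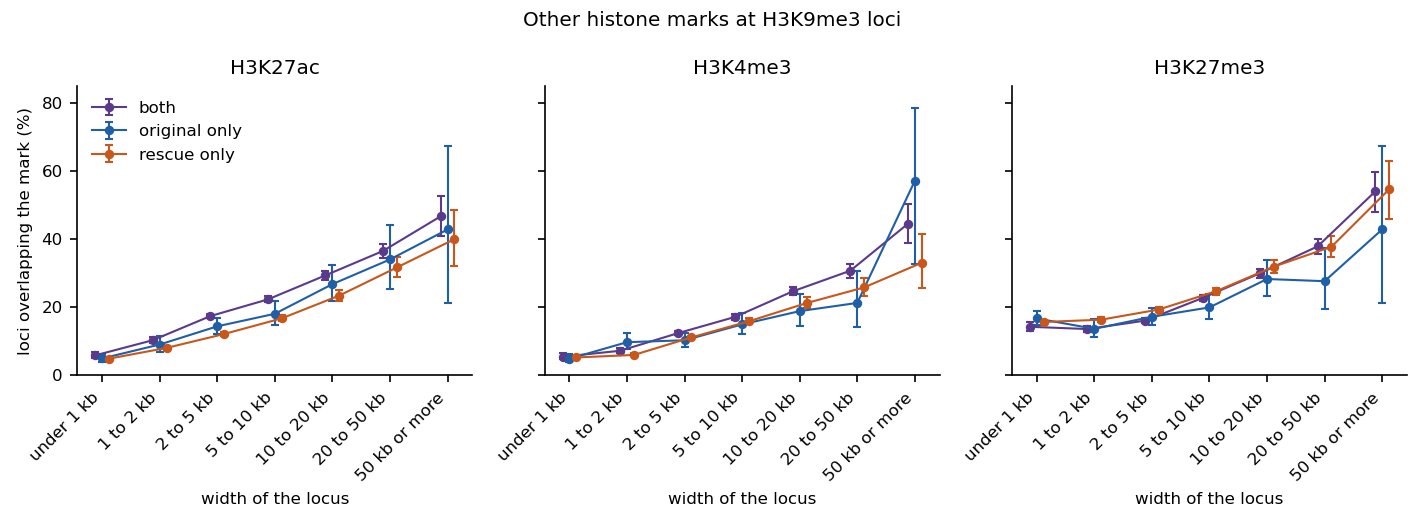
Percent of H3K9me3 loci that overlap H3K27ac (left), H3K4me3 (middle) or H3K27me3 (right) of the original experiment, by width of the locus, for loci in both lists (purple), the original list alone (blue) and the rescue list alone (orange), with 95% Wilson intervals. H3K27ac is at 17.4% in shared and 12.2% in rescue-only loci of 2 to 5 kb, and H3K27me3 at 16.1% and 19.3%.

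Genes were called covered when at least 50% of their bases lay in a list. Of 20661 autosomal protein-coding genes, 376 (1.82%) were covered by the original and 1010 (4.89%) by the rescue list. Both lists covered 306 (1.48%), the original list alone 70 (0.339%) and the rescue list alone 704 (3.41%). Lists of families, matched by gene symbol, held 51.6% of the genes covered in both lists, 61.4% of those covered in the original alone and 46.6% of those covered in the rescue alone, beside 13.3% of all genes. Genes of a family lie in clusters, so 1 wide region can cover several of them.

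Zinc finger genes of the Zfp series, many of them encoding KRAB proteins that bind retroviral sequence, were covered in both lists more often than genes at large. Of 388 genes the original list covered 47 (12.1%), the rescue list 73 (18.8%) and both lists 39. Zfp936, Zfp992, Zfp958 and Zfp872 were covered over 100% of their length in both. Zfp951, Zfp932, Zfp869 and Zfp709 had 0% in the original and 100% in the rescue list. The coverage of a further gene, Zfp809, whose protein recruits TRIM28 to retroviruses, was 57.4% and 81.9%, and it was the only one of 22 genes of the H3K9me3 machinery covered in either list.

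Chemosensory receptor genes were covered more often by the rescue list, as were all genes, with 1.82% in the original and 4.89% in the rescue list. Of 1104 olfactory receptor genes, 91 (8.24%) were covered in the original, 191 (17.3%) in the rescue and 67 in both lists. Of 230 Vmn1r genes, which encode vomeronasal type 1 receptors, 10 (4.35%) and 47 (20.4%) were covered, 8 in both. Of 122 Vmn2r genes, 8 (6.56%) and 39 (32.0%) were covered, 6 in both. Vmn2r74 and Vmn2r129 were covered throughout in both lists, while Vmn2r114, Vmn2r52, Vmn2r45 and Vmn2r72 had 0% in the original and 100% in the rescue list. At 24 olfactory receptor genes the original list alone passed 50%.

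Clustered genes of germ cells, early embryo and placenta were also covered more often by the rescue list, as were all genes. Of 6 Obox genes, 5 passed 50% in the rescue list and 0 in the original list, with Obox3 and Obox7 at 0% and 100%. Of 19 genes of the 2-cell stage (Zscan4, Tcstv, Tdpoz and Usp17l genes), the lists covered 3 and 8, with Tcstv3 and Tdpoz4 at 100% in both and Zscan4d, Usp17ld, Tcstv1 and Tdpoz2 at 0% and 100%. Of 45 Pramel genes they covered 2 and 13, of 10 Speer genes 1 and 3, and of 26 prolactin family genes 0 and 3. Pramel6 went the other way, with 100% in the original and 69.0% in the rescue list.

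Liver and secreted protein families followed the same order as all genes. The original and rescue lists covered 2 and 12 of 62 Serpin genes, 6 and 21 of 99 Cyp genes (cytochrome P450 enzymes), 1 and 8 of 22 Mup genes (major urinary proteins), 1 and 5 of 43 Ugt and Sult genes, 9 and 14 of 40 secretoglobin genes and 2 and 9 of 71 defensins. Serpina1a, Serpina1b, Serpina1c and Serpina1e, whose promoters are printed above in part, had 0% in the original and 100% in the rescue list, and Serpina1d had 29.2% and 100%. Scgb2b27 was covered over 100% by the original and 0% by the rescue list, and Scgb2b24, Scgb2b20 and Scgb2b19 the reverse. Klr genes, which encode receptors of natural killer cells, were covered at 5 and 8 of 29, with Klra5, Klrb1a and Klrb1b at 100% in both lists. Skint genes had 0 and 1 of 11 covered.

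In 5 families and lists the 2 H3K9me3 lists covered equal numbers of genes. One is the list of H3K9me3 machinery genes above. Of 75 histone genes 1 was covered in both lists, and of 76 ribosomal protein genes the 2 covered in both lists were Rpl39l and Rpl10l, copies expressed mainly in testis. None of 39 Hox genes and none of 57 clustered protocadherin genes reached 50% in either list, although the mean share of a protocadherin gene in a region was 4.17% in the original and 11.7% in the rescue list, beside 3.93% and 9.11% over all genes. Keratin genes, with 3 and 13 of 109 covered, did not belong to these. In all, 20 of the 25 families and lists had more covered genes in the rescue list, 5 had equal numbers and 0 had more in the original list. With the strongest rescue regions alone, as many as the original list holds, the rescue list still covered 813 genes, more than the original list in 17 of the 25, equal in 6 and fewer in 2.

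**Figure D4:**
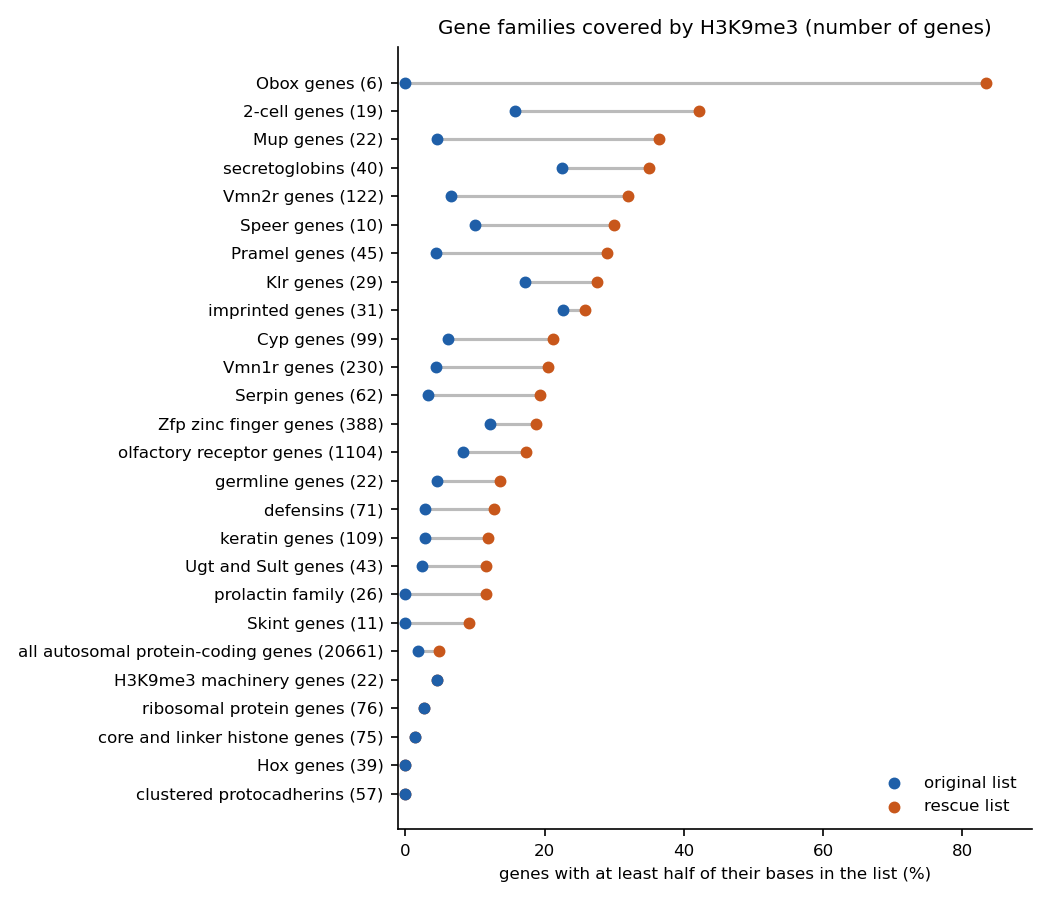
Percent of the autosomal protein-coding genes of each family or list with at least 50% of their bases in the original (blue) and rescue (orange) H3K9me3 list, with the number of genes in brackets. A grey line joins the 2 lists, and a single point means that they are equal. All genes together stand at 1.82% and 4.89%, and the Vmn2r genes at 6.56% and 32.0%.

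Imprinted genes differed little between the lists. Of 31, the original list covered 7 and the rescue list 8, all 7 in both. Mcts2, Nnat, Nap1l5 and Zrsr1, small genes that lie at imprinting control regions within larger host genes, were at 100% in both lists. Blcap, the host gene of Nnat, had 84.9% and 88.3%, the retrotransposon-derived gene Peg10 84.7% and 78.5%, and Mest 58.4% and 74.9%. Peg3, a zinc finger gene, passed 50% in the rescue list only, with 39.4% and 58.8%.

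Promoter windows ran from 250 bases before to 50 after a RefSeq start. They showed imprinted genes in both lists and germline genes, like all genes, more often in the rescue list. A window in an H3K9me3 region was found for 2.76% of the 16456 genes with a window in the original list, 10.1% in the rescue list, 10.6% in either list and 2.25% in both over the same window. A window was given for 25 of the 31 imprinted, 21 of the 22 germline and all 22 machinery genes. Of the 25 imprinted genes, 12 had one in both lists, and Igf2r had one in the rescue list alone. Of these 12, 10 also had H3K4me3 over it and 3 had H3K27ac. The regions over them ranged in width from 2.99 to 26.6 kb in the original and from 5.85 to 31.8 kb in the rescue list. They were close in width at Peg3 and Usp29, which share a promoter, with 22.9 and 22.8 kb, and at Nnat, with 9.55 and 10.4 kb. They differed more at Mest, with 11.3 and 17.0 kb, and at 2 of the regions over Snrpn windows, with 8.69 and 15.5 kb and with 2.99 and 6.61 kb. The ranks of these regions within their lists were 0.734 and 0.757 at Peg3, 0.414 and 0.775 at Mest, 0.935 and 0.889 at Nnat, and 0.190 and 0.357 at Grb10. The hexamer marked in the printed imprinted promoters occurred in 14.2% of all 20084 windows, in either orientation. Of the 12 genes, 6 held it in a window that lay in both lists. Commd1, Grb10 and Igf2, also among the 12, held it only in a window in neither list. Counting any window, 11 of all 25 imprinted genes held it. Several of these genes have more than 1 window, so the counts of genes and the share of windows are not on the same scale. Across all windows it was no more frequent in the lists than outside, with 7.14% of windows in both lists, 11.6% of rescue-only windows and 14.6% of windows in neither.

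Germline genes, which are silenced in somatic lineages, had H3K9me3 at their promoters more often in the rescue than in the original list. The same held for all genes with a window, with 2.76% in the original and 10.1% in the rescue list. Of 21 germline genes with a window, 5 (Brdt, Mael, Rpl10l, Sycp1 and Tex101) had one in both lists. Another 9 (Dazl, Ddx4, Hormad1, Mov10l1, Slc25a31, Sycp3, Tdrkh, Tuba3a and Tuba3b) had one in the rescue list alone, beside 7.86% of all genes with a window. Of these 14 genes, 12 had H3K4me3 and 12 H3K27me3 over such a window, and 11 had both over the same window. Over all windows the shares were 69.0% for H3K4me3 and 20.3% for H3K27me3. In windows in both H3K9me3 lists they were 29.1% and 8.67%, and in rescue-only windows 54.8% and 13.1%. These are shares of single windows, so they are not on the same scale as the counts of genes. The regions at Sycp1 were 12.7 kb in the original and 12.8 kb in the rescue list, with ranks of 0.818 and 0.918. Regions at promoters in the rescue list alone ranged in width from 0.541 kb at Sycp3 to 5.19 kb at Tuba3a, with 1.55 kb at Dazl, 1.44 kb at Ddx4 and 4.44 kb at Hormad1. Their ranks ranged from 0.126 at Slc25a31 and 0.244 at Tdrkh to 0.867 at Hormad1, with 0.503 at Dazl. The windows of the 14 genes held 12 to 38 CpG, as in the printed Mael and Dazl sequences, and the median over all windows was 14. With the strongest rescue regions alone, as many as the original list holds, 8 of the 14 genes had a window in either list and 3 of the 5 in both.

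Promoter windows as a whole differed between the classes in base composition, and less in sequence shared with other promoters. Windows in both lists had a median GC content of 46.7% and a CpG frequency of 0.213 of that expected from their bases, and windows in neither list 57.3% and 0.601. Rescue-only windows lay between, at 53.0% and 0.452. H3K4me3 lay over 29.1% [24.8 to 33.8] of windows in both lists, 54.8% [52.2 to 57.4] of rescue-only windows and 71.1% of windows in neither. A run of at least 50 bases shared with a promoter elsewhere in the genome was held by 16.8%, 14.4% and 16.6% of windows in both lists, the original alone and the rescue alone, and by 6.50% of windows in neither. By gene, it was held at 18.4% [14.2 to 23.6] of genes covered in both lists, 17.5% [9.82 to 29.4] of genes covered in the original alone and 32.6% [28.9 to 36.4] of genes covered in the rescue alone, beside 8.29% of all genes. The printed Serpina1 copies belong to the genes covered in the rescue list alone. The interval of these genes overlapped that of the genes covered in the original alone. Copies of a family lie in clusters and can share promoter sequence, so genes are not independent units. The intervals, which cover counting error only, therefore cannot decide whether the classes differ. Reads of near-identical copies cannot be placed with certainty where they match several. How such reads were treated for these lists is not stated in the sources at hand.

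**Figure D5:**
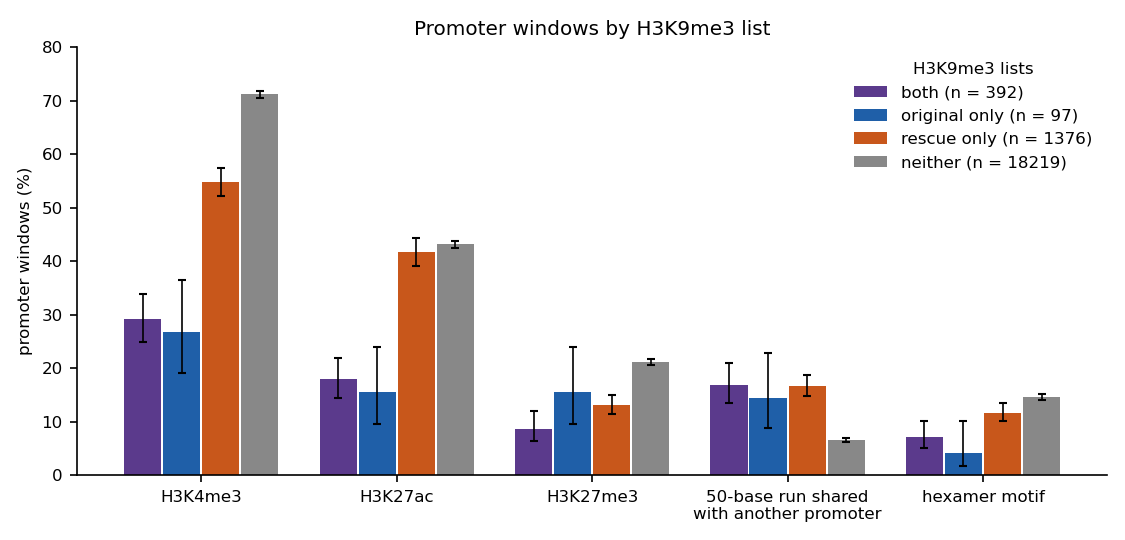
Percent of 300-base promoter windows of autosomal protein-coding genes that overlap H3K4me3, H3K27ac or H3K27me3, share a run of 50 bases with a promoter elsewhere, or hold the hexamer TGCCGC in either orientation, by H3K9me3 list (purple both, blue original only, orange rescue only, grey neither), with 95% Wilson intervals. H3K4me3 stands at 29.1% in both lists, 54.8% in the rescue list alone and 71.1% in neither.

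Hairpins of microRNA genes also showed imprinted loci in both lists. Of 919 autosomal hairpins, 37 (4.03%) lay in the original and 54 (5.88%) in the rescue list, 30 (3.26%) in both. Mir431, Mir433, Mir127, Mir434, Mir432 and Mir3071 lay in 1 locus of both lists within Rtl1 in the imprinted Dlk1–Meg3 domain (chr12:109588860-109595960, 7101 bp, of which 5881 bp were in the original and 6461 bp in the rescue list). The rescue region ended inside Mir3071, and Mir136, which overlaps Mir3071 on the other strand, lay in the original region alone. Mature sequences from RefSeq are given for 3 of these microRNAs to identify the locus, with the seed (bases 2 to 8) in capitals, and no seed is shared between them.
mmu-miR-127-3p: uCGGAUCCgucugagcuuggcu
mmu-miR-433-3p: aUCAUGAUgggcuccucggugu
mmu-miR-434-3p: uUUGAACCaucacucgacuccu
Mir335, inside Mest, and Mir675, inside H19, were in both lists as well, and Mir335 overlapped an H3K4me3 peak. Near the locus within Rtl1 the lists also differed. Mir673 (chr12:109571990-109572080) lay in the original list alone and Mir770 (chr12:109563692-109563785) in the rescue list alone.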

How the data were processed

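Native ChIP–seq of H3K9me3 was analysed from 2 lists of WT clone 410, original and rescue, with the clone's H3K27ac, H3K4me3, H3K27me3 and SUZ12 lists. The authors deposited lists of regions in which replicates were combined. MACS2 2.1.0, Picard 2.20.7, cutadapt 2.5 and BWA 0.7.15 are listed by the submitters, without roles, beside the build mm10. Which caller made the broad regions, and with which settings, is not stated in the sources at hand. The deposited broad lists (H3K9me3 and H3K27me3) give a width in bases and a score of unknown scale, used only for ranks. The deposited narrow lists (H3K27ac, H3K4me3 and SUZ12) give a ratio, the fold enrichment over background. The lists hold no read counts, so the depth behind a single region is unknown. Per library, the study's sample table gives more filtered reads in the rescue than in the original experiment. Wilson 95% intervals cover counting error of regions only. Broad starts count from 1 and narrow starts from 0, and printed positions are 1-based.

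Regions were compared on 19 autosomes by an overlap of at least 1 bp, and overlapping regions were joined into loci. Gene positions and promoter and microRNA sequences were from RefSeq (GRCm38.p6). A gene was covered at 50% or more of its bases. Named genes followed a rule: the 5 widest loci of each class and the 3 widest with each mark, in each family up to 4 genes most covered in both lists and up to 4 with the largest difference, and listed imprinted, germline and machinery genes covered in either list, of which examples are given. Further genes (Serpina1d and microRNA hairpins) and the printed sequences were chosen after their values were seen. Members and gene lists were chosen with earlier results of these data known. Promoter windows were searched on both strands for TGCCGC, and a run of 50 bases shared between windows that do not overlap was counted as shared sequence. The interval code was tested on simulated data. Python 3.11.15, numpy 2.4.6, pandas 2.3.3, scipy 1.17.1 and matplotlib 3.10.9 were used. Alternatives changed the overlap, merging, strength, list length, width, chromosomes, mark list and gene coverage. The SUZ12 lists of mutant clones were not used.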

Additional observations from a re-analysis of the deposited data

How the results depend on the processing

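The lists combine replicates and come from no test, so leaving out a replicate was not possible. No paired analysis was possible because the deposited lists hold no values per replicate. The depth behind single regions is unknown, and experiment, read layout, depth and replicate number cannot be told apart. The choices of 10 kb merging and of list length for the classes of loci and the promoters were made after seeing the data. Where a value moved, the cause was not tested beyond what the setting itself changes.

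The share of original regions found in the rescue list (91.1%) was 66.7% with at least 50% of both regions overlapping, 88.8% with at least 50% of the region covered, 92.5% with regions within 10 kb merged, 93.0% in the stronger 50% of each list, 66.5% with the strongest rescue regions, as many as the original list holds, and 89.7% for regions of at least 2000 bp. The share of rescue regions found (35.0%) was 26.5%, 27.9%, 46.2%, 35.9%, 63.2% and 43.0% under the same settings and 34.1% with sex chromosomes. Merging within 1000 bp changed neither list.

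For the stronger 50%, equal list length, at least 2000 bp and sex chromosomes in this order, original bases in the rescue list were 86.5%, 76.0%, 84.6% and 85.1%, rescue bases in the original list 35.1%, 45.3%, 38.1% and 36.6%, and the ratio of bases 2.46, 1.68, 2.22 and 2.33. At equal list length 13030 loci were in the original list alone and 14306 in the rescue list alone.

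For loci in both lists, the original alone and the rescue alone, the share with H3K27ac was 17.9%, 10.4% and 7.56% with at least 200 bp of the mark, 14.0%, 8.44% and 6.27% with its stronger 50% of peaks, 17.4%, 14.4% and 12.2% at 2 to 5 kb, and 21.7%, 12.8% and 15.7% at equal list length. There the rescue-only share was above the original-only share, the reverse of the main order. The share with H3K4me3 was 18.5%, 12.6% and 10.8% with the rescue experiment's list, 13.6%, 7.08% and 6.36% with 200 bp, 8.70%, 6.27% and 5.30% with stronger peaks, 12.4%, 10.3% and 11.1% at 2 to 5 kb, and 16.3%, 10.6% and 12.96% at equal list length. The share with H3K27me3 was 50.1%, 44.4% and 46.6% with the rescue experiment's list, 19.1%, 14.5% and 15.2% with 200 bp, 16.1%, 17.2% and 19.3% at 2 to 5 kb, and 21.6%, 17.0% and 21.3% at equal list length.

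Genes with any overlap numbered 6068 in the original, 10344 in the rescue and 5883 in both lists, and genes covered over at least 80% numbered 227, 624 and 175. More genes were covered by the rescue list in 24 of the 25 families and lists with any overlap and in 18 at 80%.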

Other observations

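The sex chromosomes were outside the comparison. On the X chromosome the original list held 1449 regions and the rescue list 4803, and the rescue list covered 3.37 times as many bases, 29.9 Mb in place of 8.87 Mb. On the Y chromosome the lists held 66 and 1232 regions, and the ratio of bases was 13.6. Both ratios were above the range of the autosomes, 2.06 to 2.498.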
